A study of Mus musculus with 2 samples.

Results

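Tff3, Fcgbp, Spink4, Muc2 and Muc13 are 5 genes that serve in the intestine as markers of goblet cells, the cells that make mucus. All 5 were found by symbol among the 13373 genes of a single-cell RNA-seq table of mouse intestinal organoids mutant in Apc. Organoids are small cultures of intestinal epithelium, and Apc is a tumour suppressor that restrains Wnt signalling. The DBZ library held 1241 cells from organoids given DBZ, an inhibitor of gamma-secretase, the protease that frees the signalling part of Notch receptors. The DMSO library held 968 cells from organoids given the vehicle DMSO. Both came from the C57Bl strain at 3 to 4 months of age, and a treatment text common to both lists 300 nM of 4-OH-tam and 10 uM of DBZ, so the titles alone separate the groups. Neither the Apc allele nor the driver of any recombinase is stated in the sources used here. The question that the design poses is which cells hold these transcripts with and without the inhibitor.

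There was 1 library per group. No difference has a replicate check, no p-value was computed, and each statement compares these 2 libraries. Intervals are 95% and cover counting error only. A median cell had 10901 unique molecular identifiers (UMIs, 1 per captured transcript copy) in DBZ and 11183 in DMSO, over ranges of 5187 to 59745 and 5241 to 56915. The median share of mitochondrial UMIs was 4.68% in DBZ and 4.4% in DMSO. Of the barcodes, 3 occurred in both libraries, and those cells held between 0 and 2 UMIs of each of the 5 genes per library. Doublet calling marked 2 DBZ and 6 DMSO cells, and the part that uncalled doublets play in cells rich in several genes was not tested.

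In the intestinal epithelium Notch signalling keeps progenitors on the absorptive path through Hes1, a repressor of Atoh1, and cells that express Atoh1 take secretory fates. Goblet cells, Paneth cells and enteroendocrine cells are such fates. Goblet cells secrete a gel built on the mucin Muc2, whereas Paneth cells at the crypt base secrete antimicrobial defensins (Defa genes). Tff3 is a small secreted trefoil peptide that helps epithelium to repair, Fcgbp is a large cysteine-rich protein of the mucus gel, Spink4 belongs to the Kazal-type serine protease inhibitors, and Muc13 is a mucin anchored in the apical membrane rather than secreted. Hes1 stood at 0.851 per 10000 UMIs in DBZ and 3.34 in DMSO, and Atoh1 at 79 UMIs in DBZ, while it was listed at 0 in DMSO. Of the 6 Notch target genes seen in both libraries, Hes1, Nrarp and Notch3 were lower in DBZ, and Dtx4, Lfng and Hes7 were higher, with log2 changes of 0.62, 0.28 and 0.09.

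The 2 genes with the most UMIs of the 5 encode short proteins held together by disulfide bonds, and their coding sequences are shown for that reason, from the GENCODE M21 transcripts on GRCm38. Tff3 lies on chr17:31125306-31129646 on the minus strand with 3 exons, and its coding sequence has 82 codons with the stop. Spink4 lies on chr4:40920052-40931395 on the plus strand with 4 exons, and its coding sequence has 87 codons. Capitals mark the in-frame TGT and TGC codons, which encode cysteine, 7 in Tff3 and 6 in Spink4.
Tff3: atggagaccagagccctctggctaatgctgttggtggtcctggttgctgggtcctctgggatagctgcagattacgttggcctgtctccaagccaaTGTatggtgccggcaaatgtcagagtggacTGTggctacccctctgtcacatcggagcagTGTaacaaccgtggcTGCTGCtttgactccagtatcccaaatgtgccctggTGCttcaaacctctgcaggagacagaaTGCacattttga
Spink4: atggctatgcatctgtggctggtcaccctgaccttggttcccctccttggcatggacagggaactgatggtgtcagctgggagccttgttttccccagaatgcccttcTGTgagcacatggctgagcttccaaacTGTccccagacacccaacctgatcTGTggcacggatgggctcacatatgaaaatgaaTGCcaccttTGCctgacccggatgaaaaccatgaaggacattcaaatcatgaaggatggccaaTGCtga

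Fcgbp lies on chr7:28071236-28120862, Muc2 on chr7:141690340-141754693 and Muc13 on chr16:33794037-33819934, all on the plus strand of GRCm38. Promoter windows of 250 bases before to 50 bases after the start were held in the RefSeq table (GRCm38.p6) for Fcgbp, Muc2 and Muc13, and not for Tff3 and Spink4. Atoh1 is a basic helix-loop-helix factor, a family that binds the E-box, so the windows of the mucus-gel genes Fcgbp and Muc2 are shown with each CANCTG on either strand in capitals. The Fcgbp window (chr7:28070986-28071285, plus strand) held 4 matches and the Muc2 window (chr7:141690090-141690389, plus strand) held 1, as did each of the 2 Muc13 windows.
Fcgbp: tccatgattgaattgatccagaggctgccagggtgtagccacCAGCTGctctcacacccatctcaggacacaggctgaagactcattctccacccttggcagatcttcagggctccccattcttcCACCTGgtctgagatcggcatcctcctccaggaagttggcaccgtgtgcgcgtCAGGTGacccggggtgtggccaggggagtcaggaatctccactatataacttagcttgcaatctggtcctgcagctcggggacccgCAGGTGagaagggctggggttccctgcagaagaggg
Muc2: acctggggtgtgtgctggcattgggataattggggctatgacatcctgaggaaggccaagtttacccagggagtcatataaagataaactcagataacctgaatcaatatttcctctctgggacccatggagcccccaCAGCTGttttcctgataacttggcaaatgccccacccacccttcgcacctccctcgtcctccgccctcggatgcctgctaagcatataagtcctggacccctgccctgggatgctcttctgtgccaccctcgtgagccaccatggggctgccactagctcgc
At least 1 CANCTG is found in 51.4% of the 32851 promoter windows of this length, and a match describes letters, not binding.

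Tff3, Fcgbp and Spink4 were more abundant in the DBZ library and Muc13 was slightly less abundant, while Muc2 was nearly missing from both. Levels are means over cells of UMIs per 10000 UMIs, and log2 changes are taken after adding 0.05 to each mean, which understates the change of low genes. Of the 8797 genes detected in 10% or more of one library's cells, 2.14% were higher in DBZ by a log2 change of at least 1, 1.38% were lower by at least 1 (3.51% in either direction), 63.2% were higher by any amount, and the median log2 change was 0.11. Tff3, Fcgbp and Spink4 were past 1 on the higher side. Each of them and Muc13 passed the 10% filter in both libraries, and Muc2 passed it in neither.

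Tff3, the trefoil peptide, averaged 14.2 per 10000 UMIs in DBZ and 1.71 in DMSO. Its log2 change of 3.02 was the rank 3 highest of the 8797 genes, and pooled UMIs gave 3.00 (interval 2.95 to 3.06). Most of this sat in few cells. Cells with at least 10 Tff3 UMIs made up 12.1% of DBZ cells (150) and 1.96% of DMSO cells (19), and they held 94.3% and 94.4% of all Tff3 UMIs. The limit of 10 was chosen after the values were seen. In DBZ 53 cells lay at 5 to 9 UMIs and 30 at 10 to 19, against 5 and 1 in DMSO, so a limit of 5 gives 203 DBZ and 24 DMSO cells and a limit of 20 gives 120 and 18. The cells with at least 20 still held 92.6% of the Tff3 UMIs in DBZ and 94.0% in DMSO. The richest cell held 2123 Tff3 UMIs in DBZ and 343 in DMSO. The 5 richest cells gave 13.8% of the DBZ mean and 46.0% of the DMSO mean, so the DMSO level rests on a handful of cells.

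At the level of a single UMI the picture was broader. In DBZ 902 cells had a Tff3 UMI, or 72.7% (interval 70.1% to 75.1%), and in DMSO 124 cells did, or 12.8% (10.8% to 15.1%). After each cell was thinned to 5000 UMIs the shares were 49.4% in DBZ and 7.23% in DMSO. Of the DBZ cells, 550 had 1 or 2 Tff3 UMIs, and together these held 2.73% of the library's Tff3 UMIs. In DMSO, 94 cells had 1 or 2 and held 3.71%.

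Spink4, the protease inhibitor, averaged 5.92 per 10000 UMIs in DBZ and 2.07 in DMSO, a log2 change of 1.5 and a pooled value of 1.35 (1.30 to 1.41). Cells with at least 10 UMIs numbered 75 in DBZ and 15 in DMSO and held 92.3% and 95.5% of its UMIs. The share of cells with a Spink4 UMI was 46.7% in DBZ (43.9% to 49.5%) and 15.3% in DMSO (13.1% to 17.7%). The richest cells came close to each other, at 1134 UMIs in DBZ and 795 in DMSO. The 5 richest cells gave 34.5% of the DBZ mean and 75.7% of the DMSO mean, and without those 5 cells of each library the levels were 3.89 in DBZ and 0.505 in DMSO, a log2 change of 2.83.

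Fcgbp, the mucus-gel protein, was a gene of low counts. Its mean was 0.624 per 10000 UMIs in DBZ and 0.104 in DMSO, with 1130 and 127 UMIs in all. The log2 change was 2.13, and 2.47 with 0.01 added in place of 0.05. Pooled UMIs, which have nothing added and weigh deep cells more, gave 2.85 (2.58 to 3.12). No DMSO cell had more than 5 Fcgbp UMIs, whereas 24 DBZ cells had at least 10 and the richest had 62. Cells with any Fcgbp UMI made up 26.8% of the DBZ library (24.4% to 29.4%) and 10.1% of the DMSO library (8.30% to 12.2%).

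Muc2, the gel-forming mucin, had 17 UMIs in the DBZ library and was listed at 0 in DMSO. No gene of the table occurred in exactly 1 cell of a library, and 723 had no UMI in DMSO. A filter on rare genes within each library and absence of the transcript cannot be told apart from such values, and no fold is given. The 17 UMIs lay in 12 DBZ cells (0.967%, interval 0.501% to 1.68%), and no cell had more than 4. GENCODE M21 tags Muc2 as a fragmented locus, with 8 transcript models of which 4 lack a found coding end and 4 a found coding start. How far this bears on the count was not tested.

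Muc13, the membrane mucin, averaged 0.587 per 10000 UMIs in DBZ and 0.725 in DMSO. Its log2 change was -0.28 and the pooled value -0.29 (-0.41 to -0.16), on 1073 and 1060 UMIs. A Muc13 UMI was seen in fewer DBZ cells, 28.8% (26.3% to 31.4%), than DMSO cells, 39.0% (36.0% to 42.2%), and likewise after thinning, 16.9% in DBZ and 22.3% in DMSO. Its richest cells were nonetheless DBZ cells, 2 of them with 38 UMIs, against 18 in the richest DMSO cell. Unlike Tff3 and Spink4, its UMIs were spread over cells of moderate count, since cells with at least 10 held 29.8% of them in DBZ and 16.2% in DMSO.

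**Figure D1:**
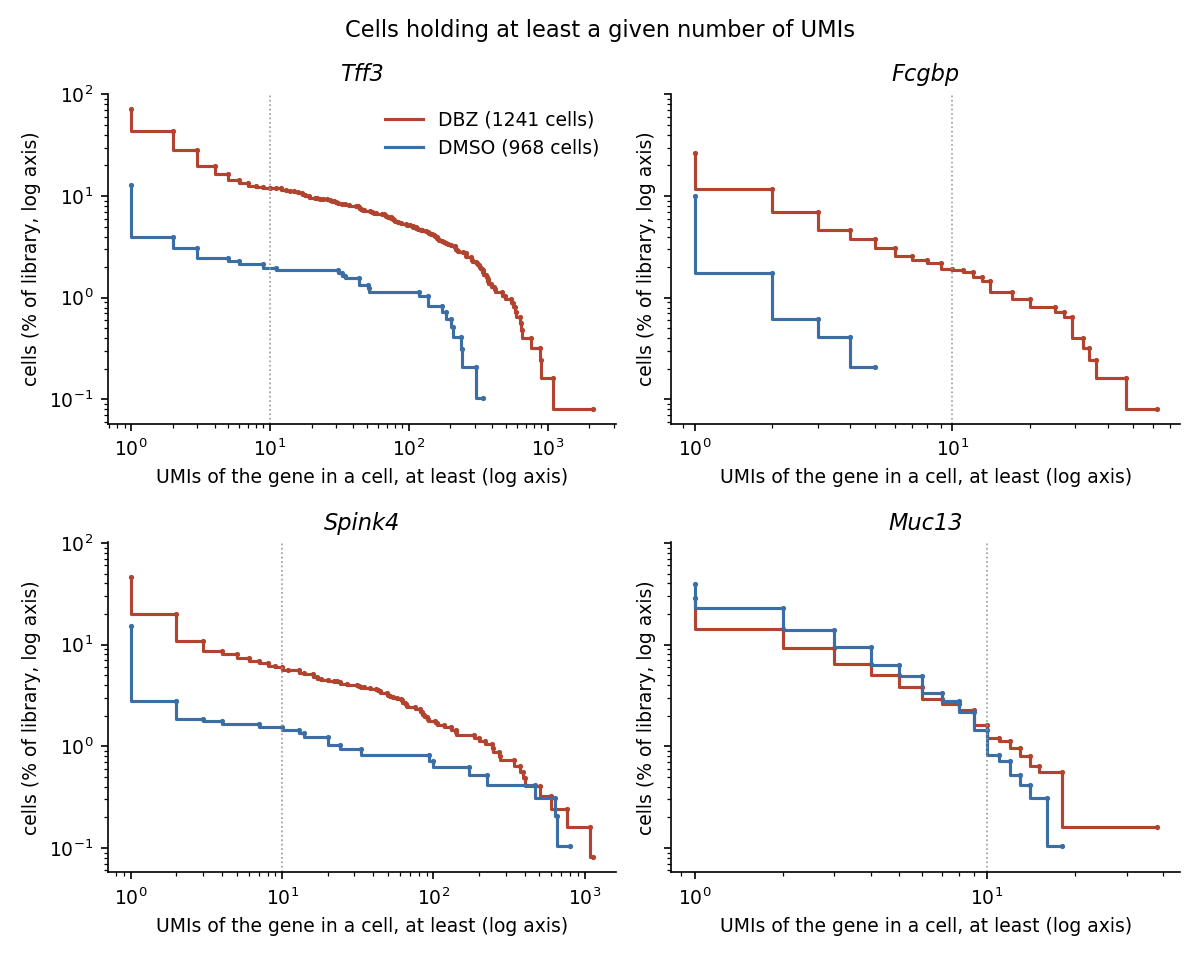
Share of cells (vertical, % of the library, log axis) that hold at least a given number of UMIs (horizontal, log axis) of Tff3, Fcgbp, Spink4 and Muc13, for 1241 DBZ cells and 968 DMSO cells; points mark observed counts and the dotted line marks 10 UMIs. The Tff3 and Spink4 curves fall slowly past 10 UMIs to a tail of rich cells (Tff3 in DBZ from 12.1% of cells at 10 UMIs to 5.16% at 100), Fcgbp ends at 5 UMIs in DMSO and at 62 in DBZ, and the DBZ curve of Muc13 starts below that of DMSO (28.8% against 39.0% at 1 UMI) and ends above it (38 against 18 UMIs).

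To see which cells these were, all cells were clustered without the 5 genes, which gave 11 clusters. A cluster was named where at least 3 of its 10 leading genes by fold were markers of 1 cell type. No cluster reached a goblet name. The cluster richest in Tff3, Spink4 and Fcgbp was Paneth-like: it was led by Defa3, Defa17, Gm15284, Ang4 and Gm7861, 6 of its 10 leading genes were Paneth markers and 1 was a goblet marker, Spink4. It held 70 DBZ cells (5.64%) and 10 DMSO cells (1.03%). As no cluster reached a goblet name by this rule, the genes are called by their symbols here. The rule does not decide whether the Paneth-like cells are also goblet cells. Of the 43 goblet markers 32 were in the table, and those missing included Clca1, Zg16 and Retnlb. Of the 22 Paneth markers 19 were in it, without Lyz1 and Lyz2. Markers missing from the table could not count towards a name. The other named clusters were enteroendocrine-like (212 DBZ and 44 DMSO cells) and mitosis-like (130 and 160 cells), and 8 unnamed ones are called by their leading genes.

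The Paneth-like cluster held 61.4% of the Tff3 UMIs of DBZ and 73.3% of those of DMSO. For Spink4 the shares were 80.1% in DBZ and 89.4% in DMSO. For Fcgbp they were 54.3% in DBZ and 13.4% in DMSO, and for Muc13 28.7% and 5.0%. Thus most UMIs of Tff3 and Spink4 lay in Paneth-like cells in both libraries, those of Fcgbp in DBZ, and those of Muc13 in neither. Counted by cells the picture differed. Of the DBZ cells with at least 10 Tff3 UMIs, 64 were Paneth-like and 86 were not. Those 86 were 26 enteroendocrine-like cells and 60 cells of other clusters. In DMSO 10 such cells were Paneth-like and 9 were not.

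**Figure D2:**
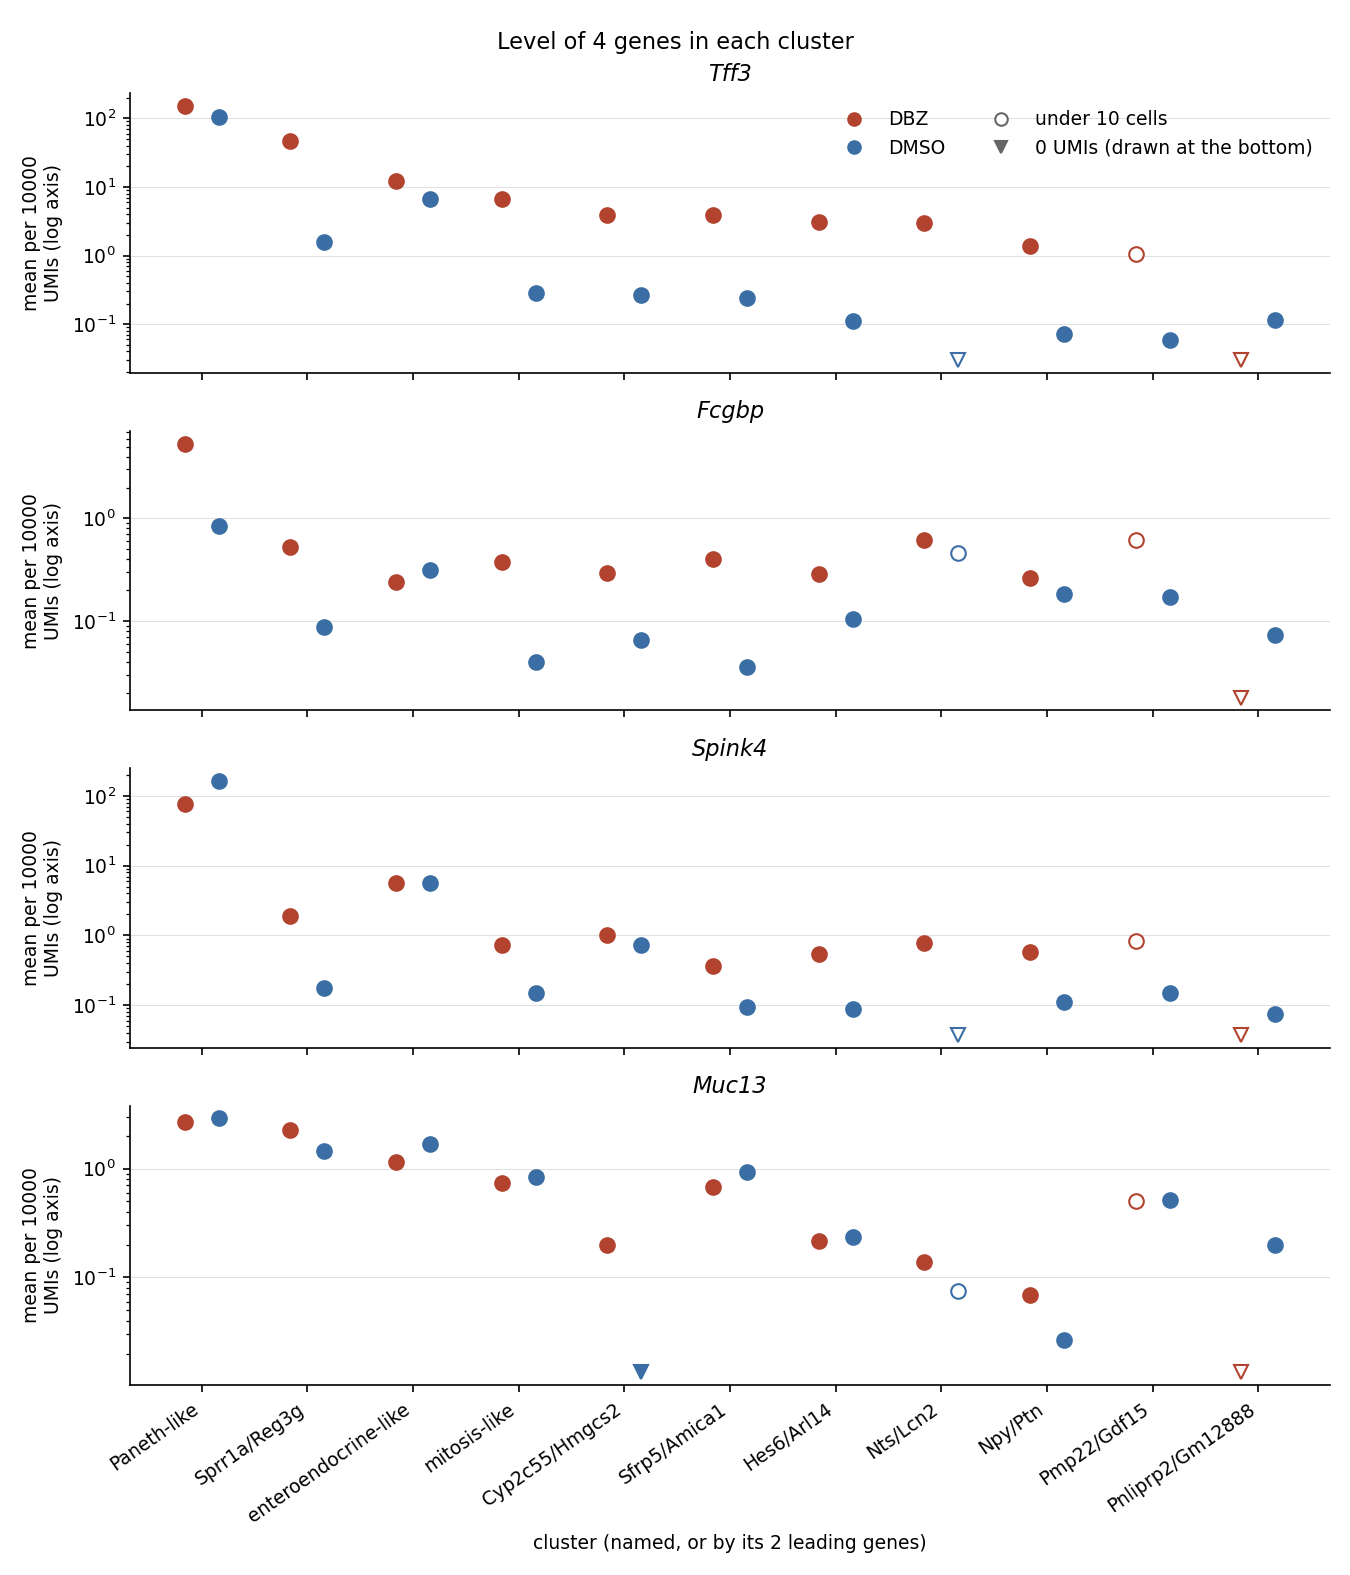
Mean level per 10000 UMIs (vertical, log axis) of Tff3, Fcgbp, Spink4 and Muc13 in each of 11 clusters (horizontal, ordered by the DBZ level of Tff3), DBZ left of DMSO; open symbols stand for fewer than 10 cells and triangles for 0 UMIs. The Paneth-like cluster is highest for Tff3 in both libraries (150 in DBZ, 105 in DMSO), and Spink4 there is lower in DBZ (77.3) than in DMSO (164).

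Within the Paneth-like cluster the 4 genes differed from one another in direction. Every one of its 70 DBZ and 10 DMSO cells held Tff3, at a mean of 150 per 10000 UMIs in DBZ and 105 in DMSO, but with medians of 94.9 and 105. The cells ranged from 0.448 to 539 in DBZ and from 16.8 to 206 in DMSO, so all DMSO cells lay within the DBZ range. Fcgbp averaged 5.36 in DBZ and 0.844 in DMSO, with medians of 1.99 and 0.546, and 29 of the 70 DBZ cells held at least 5 UMIs against 1 of the 10 DMSO cells. Its pooled log2 change was 2.54 (1.85 to 3.33). Spink4 ran the other way, with a mean of 77.3 in DBZ and 164 in DMSO and medians of 18.7 and 91.8. Its pooled log2 change was -1.13 (-1.19 to -1.07), though DBZ cells reached 713 per 10000 and DMSO cells 447. Muc13 averaged 2.70 in DBZ and 2.88 in DMSO, a pooled log2 change of -0.10 (-0.52 to 0.35). The depth of the cells was 15269 UMIs in the median DBZ cell and 18580 in the median DMSO cell. With 10 DMSO cells from 1 library, these differences describe those cells.

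**Figure D3:**
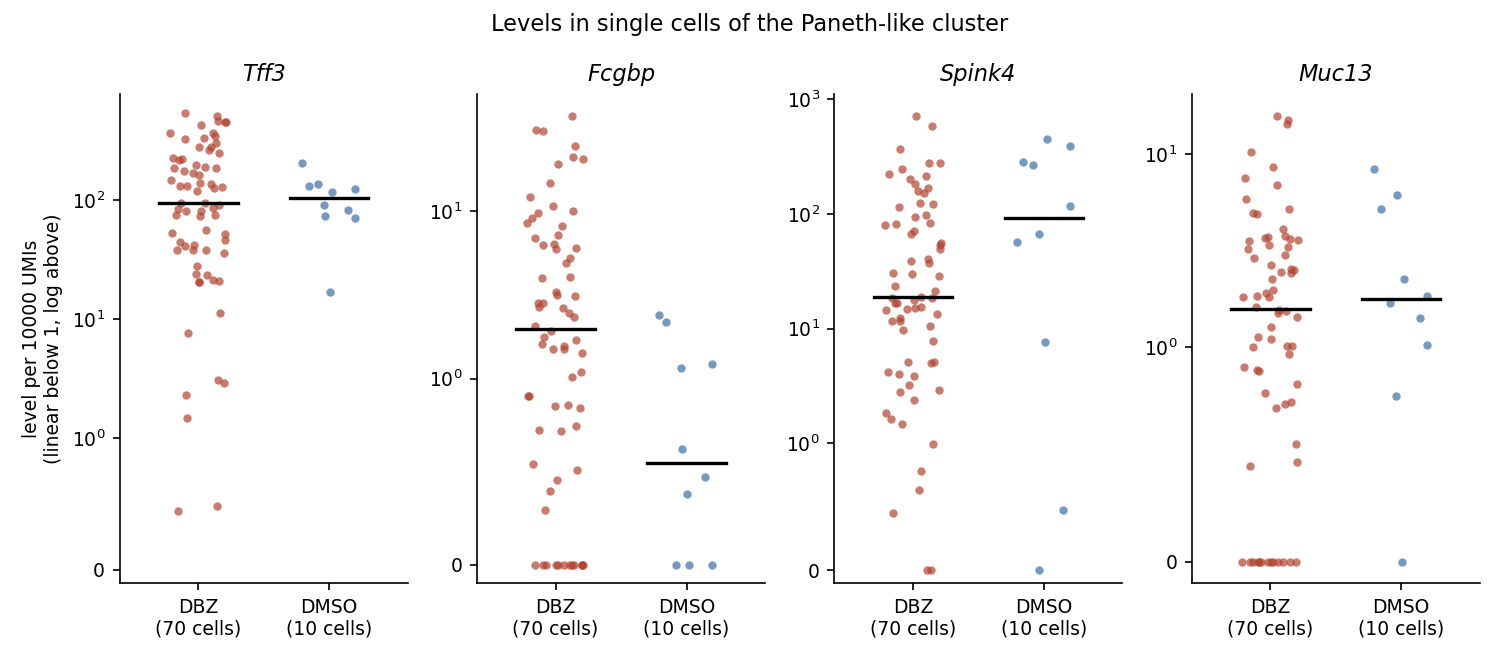
Level per 10000 UMIs (vertical, linear below 1 and log above) of Tff3, Fcgbp, Spink4 and Muc13 in each Paneth-like cell, 70 DBZ cells left of 10 DMSO cells; each point is a cell and the bar is the median. The medians of Tff3 are close (94.9 in DBZ, 105 in DMSO), Fcgbp is higher in DBZ (1.99 against 0.546) and Spink4 lower (18.7 against 91.8).

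The Paneth-like cells also held transcripts of other goblet and Paneth genes. Agr2, a disulfide isomerase needed to fold Muc2, averaged 3.52 per 10000 UMIs in the DBZ cells and 0.440 in the DMSO cells of the cluster. Guca2a, the peptide guanylin, averaged 7.56 in DBZ and 15 in DMSO. Its medians ran the other way, at 3.23 in DBZ and 2.39 in DMSO. The richest DMSO cell held 172 of the 266 Guca2a UMIs of the DMSO cells of the cluster. Clps, a cofactor of pancreatic lipase, averaged 9.96 in DBZ and 38.7 in DMSO. The defensin Defa24 averaged 884 in DBZ and 683 in DMSO and was present in every cell of the cluster. Atoh1 was seen in 18 of the 70 DBZ cells and Spdef, a factor that matures goblet and Paneth cells, in 15, and both were listed at 0 in DMSO.

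Outside the Paneth-like cluster the level of Tff3 was 6.06 per 10000 UMIs in DBZ and 0.626 in DMSO, a log2 change of 3.18. There Spink4 stood at 1.65 in DBZ and 0.378 in DMSO, Fcgbp at 0.341 and 0.0966, and Muc13 at 0.460 and 0.703, with log2 changes of 1.99, 1.41 and -0.56. Clusters also differed in size between the libraries. When the 8 clusters with at least 10 cells of both libraries were weighted alike in both (by their cells in the libraries together), Tff3 stood at 15.4 in DBZ and 6.18 in DMSO (log2 change 1.31), Fcgbp at 0.562 and 0.156 (1.57), Muc13 at 0.755 and 0.797 (-0.07), and Spink4 at 5.08 and 8.65 (-0.76). For Spink4 the sign turned under these weights, and the Paneth-like cluster was the 1 cluster of the 8 in which Spink4 was lower in DBZ. In DMSO that cluster has 10 cells, at means of 164 for Spink4 and 105 for Tff3. The weighted DMSO levels of these 2 genes therefore lean on those 10 cells. Counting clusters rather than weighing them, Tff3 was higher in DBZ in 8 of those 8, Fcgbp and Spink4 in 7 of 8, and Muc13 in 3 of 8.

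The unnamed cluster led by Sprr1a and Reg3g held the DBZ cell with 2123 Tff3 UMIs. Its 30 DBZ cells averaged 46.9 Tff3 per 10000 UMIs against 1.57 in its 107 DMSO cells, but the median DBZ cell stood at 1.07. Without the cluster's own richest Tff3 cell in each library the means were 33.0 in DBZ and 0.0752 in DMSO. The 2123-UMI cell, with 47226 UMIs in all, held 1 Spink4 UMI, 0 Fcgbp UMIs, 8 Muc13 UMIs, 1009 Defa24 UMIs and 251 UMIs of Mmp7, the protease that activates defensins. The next cells of the cluster held 629 Tff3 with 43 Spink4 UMIs, and 597 Tff3 with 3 Spink4 UMIs. The cell after those held 163 Tff3 with 18 Spink4 UMIs. Tff3 was thus abundant there in some cells with 1 or 3 Spink4 UMIs and in others with 18 or 43. In total the 30 cells held 13.8% of the DBZ library's Tff3 UMIs and 0.801% of its Spink4 UMIs.

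The enteroendocrine-like cluster, whose cells make gut hormones, averaged 12.2 Tff3 per 10000 UMIs in DBZ and 6.72 in DMSO. Of its cells, 26 in DBZ and 4 in DMSO held at least 10 Tff3 UMIs. Those 26 DBZ cells had a median of 29.5 Tff3 UMIs and 12.5 Defa24 UMIs. Of them, 22 held a UMI of the granule gene Chga, at a median of 3 over the 26, and 6 held at least 10. Spink4 in this cluster was close between the libraries, 5.70 in DBZ and 5.59 in DMSO, and 1 DBZ cell with 595 Spink4 UMIs and 3 Tff3 UMIs made up 595 of its 1190 DBZ Spink4 UMIs. Muc13 was seen in 51.9% of the DBZ and 65.9% of the DMSO cells of the cluster.

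Tff3-rich and Spink4-rich cells overlapped unequally. Of the 150 DBZ cells with at least 10 Tff3 UMIs, 69 (46.0%) also had at least 10 Spink4 UMIs, and those 69 were 92.0% of the 75 Spink4-rich cells. In DMSO, 12 cells had both, which is 63.2% of the 19 Tff3-rich cells and 80.0% of the 15 Spink4-rich cells. All 24 DBZ cells with at least 10 Fcgbp UMIs were Tff3-rich, and 20 of them were Spink4-rich. Of the 20 DBZ cells with at least 10 Muc13 UMIs, 17 were Tff3-rich, against 4 of 14 in DMSO. In DBZ the Spink4-rich and Fcgbp-rich cells were therefore nested almost wholly among the Tff3-rich ones.

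**Figure D4:**
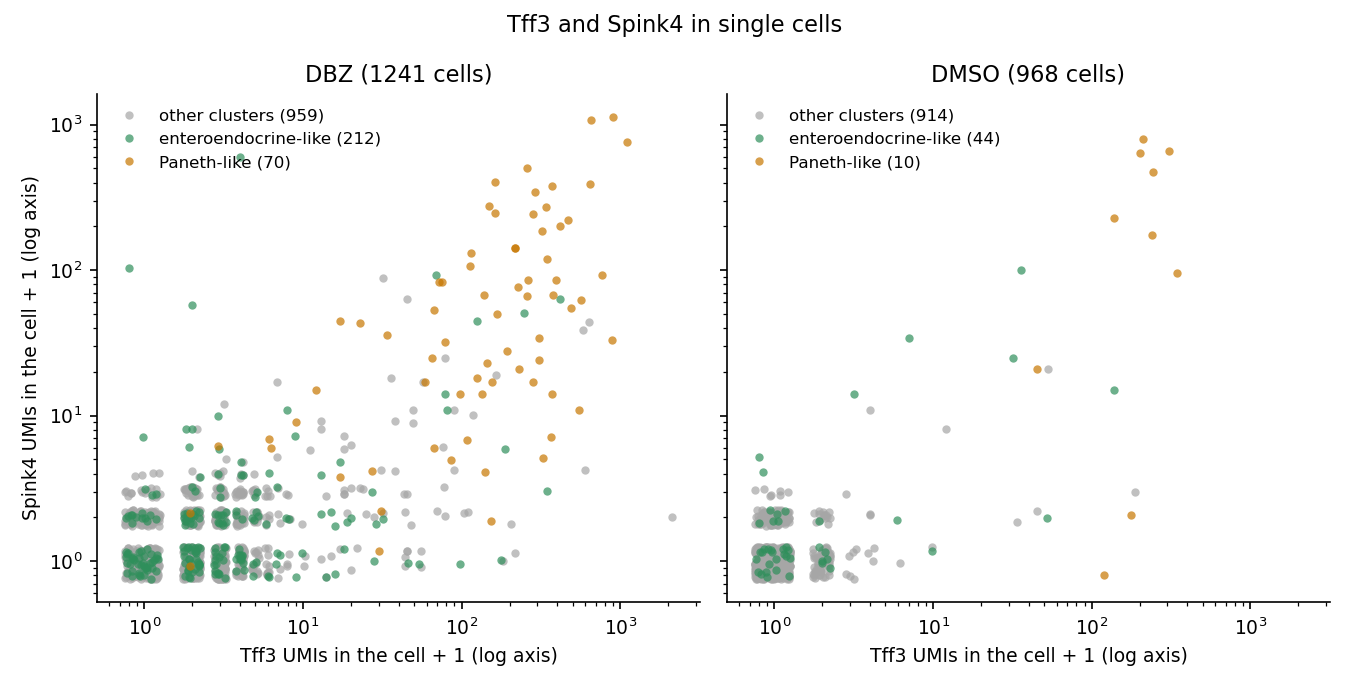
Spink4 UMIs + 1 (vertical, log axis) against Tff3 UMIs + 1 (horizontal, log axis) in each cell of the DBZ library (left) and the DMSO library (right), coloured by cluster; values under 10 UMIs are spread slightly so that points can be seen. Paneth-like cells fill the upper right in both libraries, grey DBZ cells reach 2123 Tff3 UMIs with 1 Spink4 UMI, and 1 enteroendocrine-like DBZ cell has 595 Spink4 UMIs with 3 Tff3 UMIs.

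Joint detection of single UMIs was closer to the product of the shares. A cell with both Tff3 and Spink4 was 1.09 times as frequent as that product in DBZ and 2.11 times in DMSO. After thinning to 5000 UMIs the ratios were 1.25 in DBZ and 3.82 in DMSO. For Tff3 and Fcgbp they were 1.14 in DBZ and 1.67 in DMSO, and for Tff3 and Muc13 1.16 and 1.42. A gene seen in 72.7% of cells cannot exceed a ratio much above 1, so the DBZ and DMSO ratios of Tff3 are not on the same footing.

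Droplets also capture free RNA, which puts UMIs into cells that do not express a gene, so the shares of cells with 1 UMI are not read as shares of cells expressing it. Enteroendocrine-like cells, a type not known for Tff3, carried a Tff3 UMI at a share of 73.1% in DBZ and 34.1% in DMSO, at median depths of 8748 and 7963 UMIs, and a Spink4 UMI at 43.9% and 36.4%. Some of these cells were rich in both genes, so they are no clean measure of cells that lack them. An Fcgbp UMI was seen in fewer of them than of all cells in DBZ (12.3% against 26.8%) and not in DMSO (18.2% against 10.1%). Mitosis-like cells had Tff3 at shares of 81.5% in DBZ and 20.6% in DMSO, at median depths of 18752 and 20378 UMIs. How much of the low counts is free RNA was not tested.

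The amount of Tff3 relative to Defa24, the defensin most like it across DBZ cells, differed between clusters. Paneth-like cells had 15.2 Tff3 UMIs per 100 Defa24 UMIs in DBZ (14.9 to 15.4) and 14.1 in DMSO (13.4 to 14.8). In DBZ the ratio was far higher in the Sprr1a cluster, at 116 (110 to 121), where 1 cell held 2123 of the 3774 Tff3 and 1009 of the 3261 Defa24 UMIs. It was 48.5 (45.7 to 51.4) in the mitosis-like cluster and 30.4 (29.0 to 31.8) in the enteroendocrine-like one. It was lowest among the DBZ clusters of at least 10 cells in the Cyp2c55 cluster, at 9.59 (8.95 to 10.3). In DMSO the same clusters lay closer to the Paneth-like cells, with 14.1 (12.1 to 16.4) in the Sprr1a cluster, 14.1 (11.6 to 17.0) in the mitosis-like one and 12.3 (10.8 to 13.9) in the enteroendocrine-like one. The Pmp22 cluster of DMSO, with 143 cells, had 1.69 (0.921 to 2.86). Outside the Paneth-like cluster the ratio was 33.6 (32.8 to 34.3) in DBZ and 11.3 (10.4 to 12.2) in DMSO. Over only those cells with under 10 Tff3 UMIs, it was 11.3 in DBZ (1085 cells) and 11.5 in DMSO (949 cells). For such DBZ cells it was 16.1 in the mitosis-like, 14.2 in the Sprr1a and 6.81 in the enteroendocrine-like cluster. For such DMSO cells it was 14.3 in the mitosis-like, 12.5 in the Sprr1a and 50.9 (31.4 to 80.9) in the enteroendocrine-like cluster. The last value rests on 57 Defa24 UMIs in 40 cells and is higher than over all cells. Choosing cells by a low Tff3 count takes out Tff3 UMIs by rule, and the Defa24 UMIs of the same cells go with them. In the DBZ Sprr1a cluster the 23 cells under 10 held 33 of the 3774 Tff3 UMIs and 233 of the 3261 Defa24 UMIs. A lower DBZ ratio in the cells left is therefore partly set by the choice. The intervals leave out the spread between cells.

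**Figure D5:**
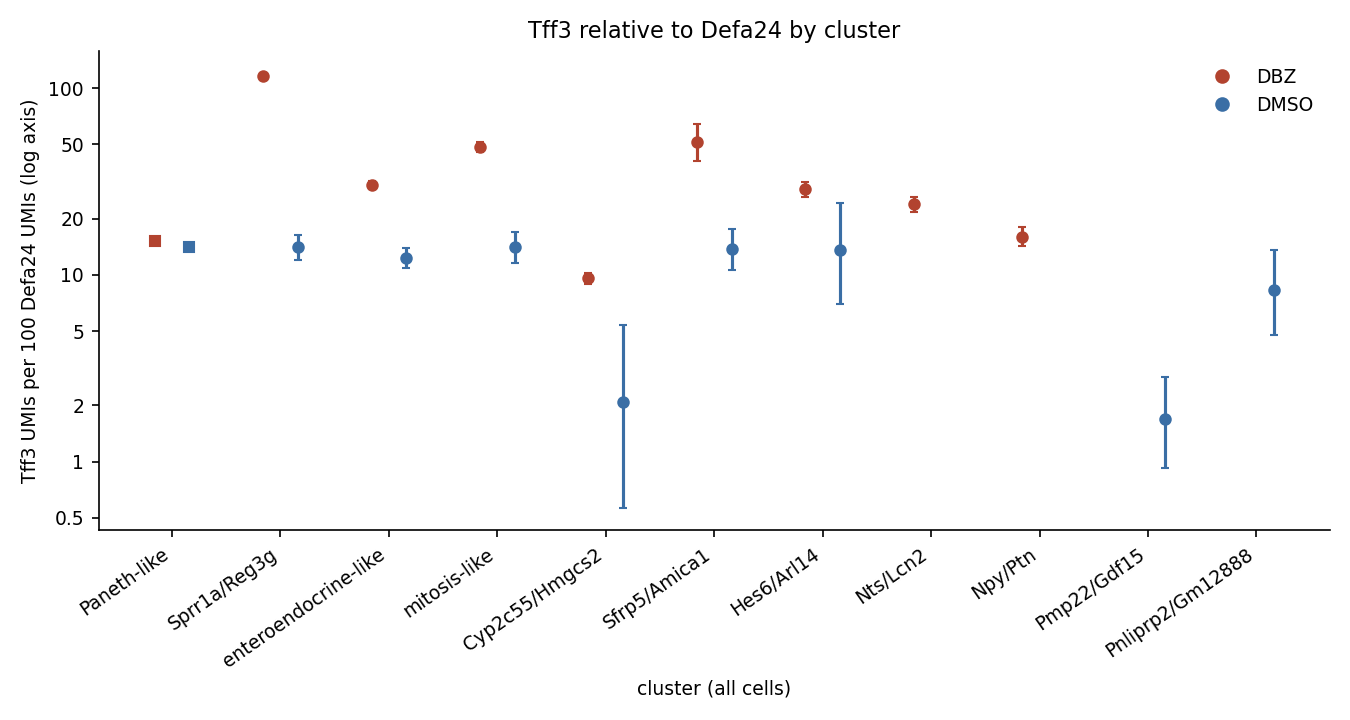
Tff3 UMIs per 100 Defa24 UMIs (vertical, log axis) over all cells of each cluster (horizontal), DBZ left of DMSO, with exact 95% counting intervals; the square marks the Paneth-like cluster, and groups with under 50 Defa24 UMIs are left out. The Paneth-like points are close (15.2 in DBZ, 14.1 in DMSO), while the Sprr1a cluster lies at 116 in DBZ and 14.1 in DMSO.

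Fcgbp was seen in many cells of the cluster led by Nts, Lcn2, Ly6g6c and Ly6d. A UMI was present in 45.1% of its 164 DBZ cells, and in 2 of its 9 DMSO cells. Its mean there was 0.616 per 10000 UMIs in DBZ and 0.456 in DMSO, with no cell above 9 UMIs. Over all DBZ cells of the cluster there were 5.19 Fcgbp UMIs per 100 Defa24 UMIs (4.32 to 6.19), against 0.556 (0.513 to 0.602) in DBZ Paneth-like cells. For Tff3 the same ratios were 23.9 (21.8 to 26.1) and 15.2.

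Muc13 also had its own distribution. Next to the Paneth-like cells its level was highest in the Sprr1a cluster, 2.28 per 10000 UMIs in DBZ and 1.45 in DMSO, and the enteroendocrine-like cells, 1.14 and 1.67. In the Sprr1a cluster 3 DBZ cells and 4 DMSO cells had at least 10 UMIs. It was low in the Npy cluster, 0.0695 in DBZ and 0.0268 in DMSO, and had 0 UMIs in the 14 DMSO cells of the Cyp2c55 cluster. The large DMSO clusters led by Sfrp5 (192 cells) and the mitosis-like one (160 cells) held 23.6% and 29.6% of its DMSO UMIs, at 0.938 and 0.840 per 10000. Its pooled log2 change was -0.55 (-0.95 to -0.13) in the enteroendocrine-like cluster and 0.69 (0.37 to 1.01) in the Sprr1a cluster. These intervals leave out the spread between cells. In the Sprr1a cluster 3 DBZ cells held 38, 18 and 15 of the 132 DBZ Muc13 UMIs. The median cell there stood at 0.855 per 10000 UMIs in DBZ and 0 in DMSO. In the other clusters of at least 10 cells a library the interval held 0, except for the Cyp2c55 cluster, where none could be computed.

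The 12 DBZ cells with a Muc2 UMI were deep, with a median of 20544 UMIs against 10845 in the DBZ cells without one. Of them, 6 were Paneth-like and held 11 of the 17 UMIs. The cell with 4 Muc2 UMIs also held 258 Tff3, 12 Fcgbp, 504 Spink4 and 2751 Defa24 UMIs. The pair of cells with 2 Muc2 UMIs each were the richest in Fcgbp, with 62 and 47 UMIs, and held 1102 and 903 Tff3 UMIs beside 3241 and 2457 Defa24 UMIs. Each of the other 9 cells had 1 Muc2 UMI. In total 8 of the 12 cells held at least 10 Tff3 UMIs and 2 held none. The cells with most Muc2 were therefore cells rich in defensin, Tff3, Spink4 and Fcgbp at once.

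Paneth genes were among the genes most alike across single cells for Tff3, Spink4 and Fcgbp, and not for Muc13. Pearson correlations of the log values were taken over the 1241 DBZ cells and the 968 DMSO cells, which share a library, its free RNA and their depth, so they are descriptions. For Tff3 in DBZ the closest were Defa24 (0.74), Defa17 (0.70), Spink4 (0.66), Rnase1 (0.64) and Defa3 (0.61). In DMSO they were Defa17 (0.73), Spink4 (0.72), Clps (0.71), Defa24 (0.71) and Rnase1 (0.56). For Spink4 the closest was Defa24 in DBZ (0.72) and Clps in DMSO (0.76). Fcgbp followed Tff3 in DBZ (0.57), and in DMSO no gene reached above 0.33, the value of Defa24. Muc13 followed Tff3 (0.50) and the lectin Lgals4 (0.49) in DBZ, and Lgals4 (0.40) and the adhesion gene Ceacam1 (0.36) in DMSO, with no defensin among its 5 closest in either. Outside the Paneth-like cluster the correlation of Tff3 with Spink4 was 0.38 over 1171 DBZ cells and 0.51 over 958 DMSO cells.

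Other goblet genes were read from a list of 43, of which 32 were in the table, the 5 genes described included. Over its 30 genes detected in 1% or more of one library's cells the median log2 change was 0.29, against 0.10 over all 12921 genes that passed this filter. Of the 25 seen in both libraries, 20 were higher in DBZ and 5 lower, while 63.5% of all genes were higher. By at least 1, 7 were higher and 0 lower, beside 1.89% and 1.04% of all genes (2.93% in either direction). Those 7 were the described genes Tff3, Fcgbp and Spink4, and besides them Agr2 (1.08), Guca2a (1.15), the exocytosis gene Sytl2 (1.14) and Hepacam2 (1.35). The median and the counts take in the genes described, so they are no separate measure of the other goblet genes. The 5 that were lower in DBZ were Muc13, Clca3a1 (-0.24), Galnt12, a glycosyltransferase that starts O-glycans (-0.49), Bcas1 (-0.57) and Creb3l4 (-0.31). Listed at 0 in DMSO were Muc2, Atoh1, Spdef, Ern2, Ano7, Fer1l6 and Ccl9, with 14 to 79 UMIs in DBZ. Of the DBZ UMIs of Agr2 and Guca2a, 65.1% and 84.2% lay in Paneth-like cells, whereas only 9.17% of those of Hepacam2 and 15.9% of those of Sytl2 did. In DMSO the shares were 4.04% for Agr2, 74.9% for Guca2a, 1.49% for Hepacam2 and 10.3% for Sytl2.

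Mucins, Kazal-type inhibitors and partners of mucus moved in several directions. Of 17 mucins 5 were in the table. Besides Muc2 and Muc13 these were the membrane mucins Muc3a (log2 change -0.07) and Muc4 (-0.15) and the gel-forming mucin Muc6 (0.29). Muc6 had 436 UMIs in DBZ and 214 in DMSO, of which 0.688% and 0 lay in Paneth-like cells, and its pooled log2 change was 0.72 (0.48 to 0.96). Of the Kazal-type inhibitors Spink2 was level (0.05), and Spink1 and Spink10 had 28 and 29 UMIs in DBZ and were listed at 0 in DMSO. Lypd8, a protein that keeps flagellated bacteria from the epithelium, was lower in DBZ, at 0.438 per 10000 UMIs against 1.54 in DMSO (-1.70). The chloride channel Cftr was lower as well (-1.05), and the lectin Itln1 was near level (0.22). Of 16 secretory regulators 13 were seen in both libraries, and 9 were higher and 4 lower in DBZ, close to the 63.5% of all genes that were higher. Xbp1, which expands the secretory apparatus, was higher (0.75), as was Neurog3, the enteroendocrine factor (1.51). The 4 lower ones were Klf4 (-0.57), Hes6 (-0.42), Creb3l4 (-0.31) and Sox9 (-0.23).

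Most markers of other secretory cells were, like Tff3, Fcgbp and Spink4, higher in DBZ. Of the 19 Paneth genes measured, 18 were seen in both libraries, and 15 were higher and 3 lower in DBZ, beside the 63.5% of all genes that were higher. The 3 lower ones were Pnliprp2 (-1.21), Mptx1 (-1.16) and Reg3g (-0.02). The summed level of the Paneth genes averaged 278 per 10000 UMIs in DBZ and 66.1 in DMSO. Defa20 and Defa24 gave 72.6 and 70.7 of the DBZ sum. Defa23 was listed at 0 in DMSO. Of the 26 enteroendocrine genes measured, 22 were seen in both libraries, and 21 were higher and 1 lower, beside the same 63.5%, with a summed level of 25.4 in DBZ and 7.20 in DMSO. Pax4, Cck, Gip and Gcg were listed at 0 in DMSO. The part of these cell types in the library-wide changes of Tff3, Fcgbp and Spink4 is shown only by the levels within and outside the Paneth-like cluster given above.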

How the data were processed

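Cells of both libraries were captured on a 10x Chromium chip aiming at 3000 cells each, per the labels' protocols. Per the submitters' processing notes, Cell Ranger 2.1.1, Seurat (no version given) and mm10 were used. How cells and genes were filtered, and with which annotation, is not given in the sources used here. Values were deposited by the authors as natural log values: in each cell exp(value) - 1 sums to 10000, so a value is the natural log of 1 + 10000 times a gene's share of UMIs. All 7553435 values above 0 were whole multiples of a step per cell (tolerance 0.01), which gave back the UMIs. No count model was run on them. Column names begin with GSI or CTRL, and these were read as DBZ and DMSO from the meaning of the names.

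Levels were computed as UMIs per 10000 and averaged over cells. Pooled log2 ratios have exact conditional intervals, and shares have Clopper-Pearson intervals. Thinning to 5000 UMIs left out 0 cells. Clusters came from scanpy 1.11.5 and igraph 0.11.9 (2000 variable genes less the 4 of the 5 genes among them, 30 components, 15 neighbours, Leiden resolution 1, seed 0, no integration). Leading genes were taken among those in at least 25% of a cluster's cells. Scrublet at an expected 5% marked 2 DBZ and 6 DMSO doublets, which were kept. On simulated libraries of 13373 genes, the sign of DBZ over DMSO was right for 100% of 50 genes at each fold. The folds were 0.25, 1.5, 2 and 4, and the interval held the truth for 96%, 96%, 100% and 96%. All cells of a simulated library shared the same profile and differed only in depth and counting error. The simulation therefore cannot test the intervals for genes as uneven between cells as Tff3 and Spink4. Named genes are the 5 genes, all list genes in the table, the 5 most correlated genes (seen in at least 5% of cells, without Gm, Rik, mitochondrial and ribosomal genes) and leading genes of clusters. Genes, lists and rules were chosen with earlier results of these data known, and Clps, Mmp7 and Chga are named after their values were seen.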

Additional observations from a re-analysis of the deposited data

How the results depend on the processing

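With clusters weighted alike in both libraries, a setting added after seeing the data, the log2 change of Spink4 reversed to -0.76, and those of Tff3, Fcgbp and Muc13 were 1.31, 1.57 and -0.074. The DMSO levels of Spink4 and Tff3 in that setting lean on 10 Paneth-like cells. No other setting tried reversed a direction. For Tff3 the log2 change was 2.74 with 0.5 added in place of 0.05, 3.16 without the richest cell of each library, 3.66 without the 5 richest, 3.09 without cells over 2 times the median UMIs, 3.18 without the Paneth-like cluster, and 3.64 without the enteroendocrine-like cluster as well. For Fcgbp it was 2.47 with 0.01 added, 0.90 with 0.5 added, 2.85 from pooled UMIs, and 1.41 and 1.6 without those clusters. For Spink4 it was 1.32 with 0.5 added, 1.35 from pooled UMIs, 1.70 and 2.83 without the richest 1 and 5 cells, 1.65 without deep cells, and 1.99 and 2.18 without those clusters. For Muc13 it was -0.56 and -0.97 without those clusters. Leaving out the Paneth-like cluster alone, and the cells with shared barcodes, were settings chosen after seeing the data.

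Shares of cells depend on depth and on the UMIs asked for. With at least 2 UMIs they were 44.1% in DBZ and 3.93% in DMSO for Tff3, 11.8% and 1.76% for Fcgbp, 19.98% and 2.79% for Spink4, 0.242% in DBZ for Muc2, and 14.2% and 22.9% for Muc13. After thinning to 5000 UMIs they were 49.4% in DBZ and 7.23% in DMSO for Tff3, 15.1% and 4.13% for Fcgbp, 26.3% and 7.85% for Spink4, 0.242% in DBZ for Muc2, and 16.9% and 22.3% for Muc13. Without cells over 2 times the median they were 24.1% for Fcgbp and 43.3% for Spink4 in DBZ, and 25.5% in DBZ and 35.4% in DMSO for Muc13. Thinned ratios of joint detection with Tff3 were 1.25 (Spink4), 1.43 (Fcgbp) and 1.34 (Muc13) in DBZ, and 3.82 (Spink4) and 1.79 (Muc13) in DMSO. Genes past a log2 change of 1 were 3.51% as reported, 2.93% over genes in at least 1% of cells, 2.83% with no filter, 5.54% with 0.01 added and 0.739% with 0.5 added. The goblet list median was 0.63 with 0.01 added and 0.058 with 0.5 added. The richest cluster held 63.5% of the DBZ Tff3 UMIs with the 5 genes kept in the clustering and 59.7% at resolution 0.5. The cause of each shift was not tested. No paired analysis was possible because there was 1 library per group. With 10 DMSO cells in the Paneth-like cluster, counts of Fcgbp and Muc13 there limit what can be seen.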
